A study of Mus musculus with 15 samples.

Results

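The guanylate-binding proteins (GBPs) and immunity-related GTPases (IRGs) examined here are 10 genes, *Gbp2*, *Gbp3*, *Gbp4*, *Gbp5*, *Gbp6*, *Gbp7*, *Iigp1*, *Irgm1*, *Irgm2* and *Igtp*, chosen by gene symbol from the 55487 genes of the count table. Together they held 5274 counts over 15 skin libraries. Transcripts were counted with the QuantSeq 3′ method, in which each poly(A) transcript is sequenced near its 3′ end, in skin of 3-week-old mice on a C57BL/6 background. The 5 libraries labelled WT (replicates 1, 4, 7, 10 and 13) came from Otulin fl/fl littermates without Cre. The OTULIN-KO libraries came from Otulin fl/fl K14-Cre mice, 5 from skin without lesions (non-lesional, replicates 3, 6, 9, 12 and 15) and 5 from lesional skin (replicates 2, 5, 8, 11 and 14). All 3 groups carry the floxed alleles, and the keratin 14 promoter restricts the deletion to keratinocytes while the libraries hold RNA of the whole skin sample. Whether the same mice gave both kinds of OTULIN-KO skin is not stated in the labels, and libraries were compared as unpaired.

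GBPs and IRGs are large GTPases that cells make in response to interferon. They gather on vacuoles and bacteria inside infected cells, where GBPs help to break the vacuole and to bring lipopolysaccharide to the inflammatory caspase encoded by *Casp4*. Among IRGs, *Iigp1* encodes an effector that attacks vacuole membranes, while *Irgm1*, *Irgm2* and *Igtp* encode regulators that sit on the cell's own membranes and hold the effectors inactive there. Interferon-γ drives these genes through GAS elements, and both interferon types act through interferon-stimulated response elements (ISREs), which complexes with IRF9 and the factor IRF1 bind.

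The promoter sequences are shown because the ISRE was the element common to every member with a promoter window. RefSeq windows on GRCm38.p6, from 250 bases before to 50 bases after the start, were given for 7 of the 10 members, namely *Gbp2*, *Gbp3*, *Gbp5*, *Gbp7*, *Irgm1*, *Irgm2* and *Igtp*. The ISRE core searched was GAAANNGAAA on either strand, and the GAS element was TTCNNNGAA, which reads alike on both strands. The 7 members had 8 windows, since *Gbp3* has a second start. An ISRE core lay in 7 of 8 windows, 1 window of each member and none at the second start of *Gbp3*, and in 3.44% of all 32851 windows. A GAS element lay in 4 of the 8 windows (*Gbp5*, *Gbp7*, *Irgm2* and *Igtp*) and in 8.30% of all windows, and both elements together lay in those 4 members and in 0.454% of all windows. In the stretches below, capitals mark the matches of either motif, and the stretch is written on the strand of the gene.
Gbp2 (chr3:142620589-142620628, plus strand): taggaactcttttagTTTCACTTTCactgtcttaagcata
Gbp3 (chr3:142559984-142560029, plus strand): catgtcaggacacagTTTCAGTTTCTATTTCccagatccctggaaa
Gbp7 (chr3:142530215-142530307, plus strand): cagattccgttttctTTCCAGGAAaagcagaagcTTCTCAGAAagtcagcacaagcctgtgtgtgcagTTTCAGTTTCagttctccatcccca
Irgm2 (chr11:58214887-58214937, plus strand): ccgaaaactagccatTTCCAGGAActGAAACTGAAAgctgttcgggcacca
Igtp (chr11:58199496-58199546, plus strand): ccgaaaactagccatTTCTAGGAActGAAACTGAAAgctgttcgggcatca
The ISRE began 59 bases before the start in *Gbp2*, 53 in *Gbp7*, 64 in *Irgm2* and 34 in *Igtp*, and *Gbp3* held a pair that overlap, 45 and 39 bases before it. The stretches of the neighbouring genes *Irgm2* and *Igtp* were identical at 49 of 51 bases, with the GAS element in the same place just before the ISRE. These stretches were cut around the matches. Over the whole windows of both genes, at the best offset without gaps, 184 of 270 bases were identical. A match is a description of the letters in the window and was not tested for binding. In GENCODE M21 the *Gbp2* and *Gbp3* stretches run into an annotated first exon, the *Irgm2* stretch lies in an intron of a longer *Irgm2* transcript, and those of *Gbp7* and *Igtp* lie outside any annotated gene.

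**Figure D1:**
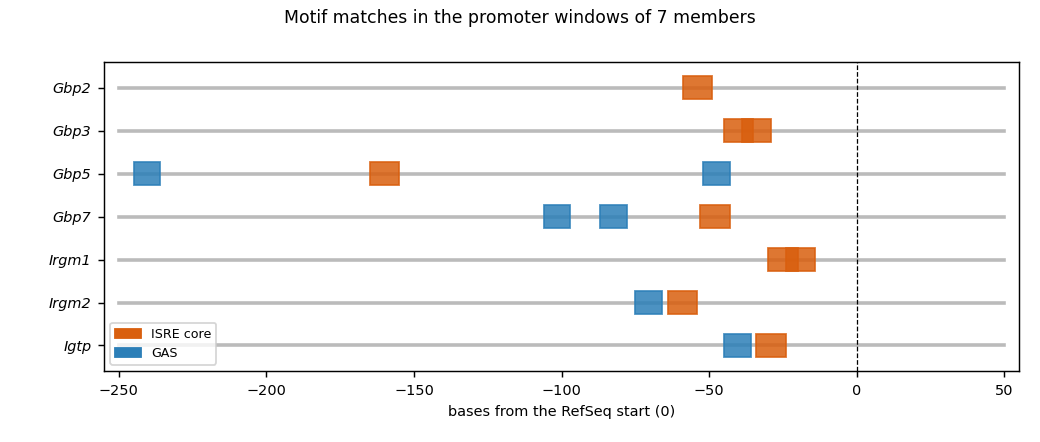
Position of ISRE core (orange) and GAS (blue) matches in bases from the RefSeq start (0) in the windows of the 7 members that have one. The ISRE lies within 64 bases of the start in every member shown except *Gbp5*, where it lies 165 bases before it.

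In GENCODE M21 on GRCm38 the members sit in clusters. *Gbp5* (142493978 to 142522344), *Gbp7* (142530342 to 142550149), *Gbp3* (142560026 to 142573209) and *Gbp2* (142620602 to 142638008) lie in this order on chromosome 3. *Gbp4* (105115767 to 105139586) and *Gbp6* (105270702 to 105293698) lie on chromosome 5, and *Irgm1* (48861968 to 48871683), *Igtp* (58199556 to 58207591) and *Irgm2* (58199618 to 58222782) on chromosome 11. *Iigp1* runs from 60376027 to 60392634 on chromosome 18. The counting gave a read that overlaps several genes to each of them. *Irgm2* and *Igtp* share 162 exonic bases on the same strand, *Gbp4* shares 60 with *Gbp9* and 61 with *Gbp8*, and these stretches end 3528 (*Irgm2*), 1798 (*Igtp*) and 7387 (*Gbp4*) exonic bases from the 3′ end that the libraries read. *Gbp6* shares 1726 exonic bases with *Gm43302*, and *Gbp7* shares 637 with the pseudogene *Gm43802*, which had 4 counts in all against 1417 for *Gbp7*. The family is also rich in near copies, so counts of *Gbp6* in particular are uncertain.

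Library totals ran from 1962604 to 2567138 counts. CPM below are the usual depth-scaled counts, computed with TMM-normalized library sizes, and 3 counts, the limit that a count of 0 allows, equal 1.14 to 1.56 CPM in these libraries. *Otulin* itself did not separate the groups, with log2 fold changes against WT of 0.18 (SE 0.20) in non-lesional and 0.10 (SE 0.22) in lesional libraries, and the libraries are named by their labels. Lesional replicates 2 and 11 stood apart from the other 13 libraries. The summed CPM of 5 stressed keratinocyte markers (*Krt6a*, *Krt6b*, *Krt16*, *Sprr1b* and *Sprr2d*) was 10188 and 28920 in them, against 244 to 1323 in all others. The neutrophil list summed to 3024 and 5184 CPM in them, against 1.7 to 221 elsewhere. Of its 7 markers *Csf3r*, *Ly6g* and *Mpo* were at 0 in every library, and the sum is mostly *S100a8* and *S100a9*, which stressed keratinocytes also make. Muscle markers summed to 3426 CPM in lesional replicate 11 and to 14522 CPM or more in the rest. Keratinocyte markers, which define skin, were abundant in every library at 7556 to 13240 CPM. Y-linked transcripts were near 0 in 1 library of each group, namely WT replicate 1, non-lesional replicate 12 and lesional replicate 11.

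In WT skin the members were expressed at low to moderate levels. Since a 3′ tag is counted about once per transcript whatever its length, CPM can be set side by side. Members with near copies may read too low, since only uniquely mapping reads were counted. *Gbp7* was the most abundant member with 31.7 ± 5.1 CPM (SD, n = 5), followed by *Iigp1* with 25.1 ± 6.8, and *Gbp2* with 16.9 ± 2.8. *Gbp3* had 9.2 ± 2.1 CPM, *Irgm2* 8.4 ± 1.7, *Igtp* 8.4 ± 2.6 and *Gbp4* 4.5 ± 1.3. *Gbp5* had 2.9 ± 2.3 CPM, *Irgm1* 0.97 ± 0.82 and *Gbp6* 0.26 ± 0.39. In this order each member overlapped the next over the 5 WT libraries, except that all WT values of *Gbp2* lay above all of *Gbp3*. *Gbp7*, *Iigp1* and *Gbp2* were also the most abundant members in the other groups, with *Gbp2* (47.0 ± 46.4 CPM) and *Iigp1* (45.1 ± 34.9 CPM) within each other's spread in lesional libraries. Counts below 20 per library, as for *Gbp5* (2 to 18), *Irgm1* (1 to 16) and *Gbp6* (0 to 4), left these 3 members short of the filter on low counts, so that 7 of 10 members were tested in each comparison.

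**Figure D2:**
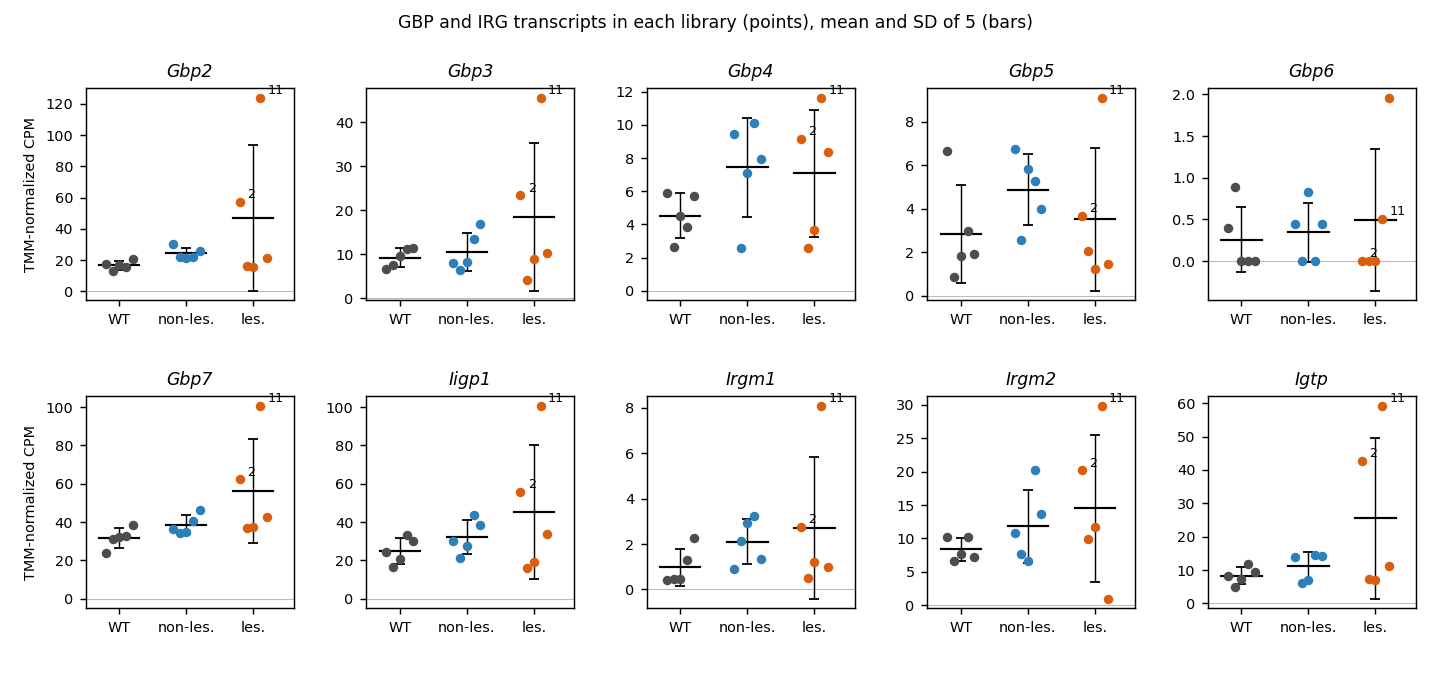
TMM-normalized CPM of each member in every library (points), with the mean and SD of 5 libraries (bars), on a separate scale for each gene. Lesional replicates 2 and 11 are marked by number, and replicate 11 is the highest of the 15 libraries in 9 of 10 members.

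Non-lesional skin was compared with WT to ask whether the GTPases differ in OTULIN-KO skin without visible lesions. Among the 7 members tested, only *Gbp2* reached an unadjusted p under 0.05, and none passed after adjustment over all genes. With all 15 libraries in 1 fit 0 members reached it, *Gbp2* included, and 3 did without the filter (*Gbp2*, *Gbp4* and *Iigp1*) or with hair and muscle covariates (*Gbp2*, *Gbp4* and *Irgm2*). All 7 fitted log2 fold changes were above 0, with a median of 0.41, against −0.0027 over all 13021 genes tested, of which 49.4% were above 0. Leaving out non-lesional replicate 15 alone moved one of them, that of *Gbp3*, below 0 (−0.023). Without non-lesional replicate 12 alone the median was 0.26, and the values of *Irgm2* and *Iigp1* were 0.21 and 0.22. Without WT replicate 4 alone that of *Igtp* was 0.27. The members vary together from library to library, so their shared sign is not 7 separate observations. Of all genes tested, 1.85% were higher with an unadjusted p under 0.05, 0.392% were higher with no overlap between groups, and 0.0% passed the adjusted threshold (0 of 13021 by edgeR, 411 at an unadjusted p under 0.05 in either direction, 1 adjusted call by DESeq2). The members' count was 1 of 7 by either unadjusted measure.

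*Gbp2*, a prenylated GBP that coats vacuoles, had 17.7, 13.2, 16.7, 15.8 and 20.9 CPM in WT replicates 1, 4, 7, 10 and 13. In non-lesional replicates 3, 6, 9, 12 and 15 it had 30.2, 21.9, 21.7, 22.3 and 26.1 CPM. Every non-lesional library thus lay above every WT library. The log2 fold change was 0.53 (SE 0.18, edgeR's quasi-likelihood test, p = 0.0073, Benjamini-Hochberg adjusted p = 0.9998), and the two-sided exact permutation test gave p = 0.0079, the smallest value that 5 against 5 libraries allow. Members were tested in this way 30 times, 10 in each of 3 comparisons, without adjustment. The exact test did not reach 0.05 for any other member here.

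*Gbp4* had 5.89, 2.65, 4.53, 3.84 and 5.69 CPM in the WT and 9.46, 2.58, 7.08, 10.1 and 7.95 CPM in the non-lesional libraries. All non-lesional libraries but replicate 6 were above every WT library, and replicate 6 was below every one. Its log2 fold change of 0.70 (SE 0.35) was the largest of the members tested and did not reach the threshold (edgeR p = 0.057, exact permutation p = 0.15). *Gbp7*, which takes part in oxidative killing of bacteria, had a log2 fold change of 0.28 (SE 0.15), and *Gbp3* one of 0.20 (SE 0.28). Among the IRGs, the value was 0.49 (SE 0.29) for *Irgm2*, 0.41 (SE 0.30) for *Igtp* and 0.35 (SE 0.21) for *Iigp1*. *Iigp1* had 24.3, 16.8, 20.8, 33.2 and 30.4 CPM in WT against 30.2, 21, 27.5, 43.8 and 38.4 CPM in non-lesional libraries, so the groups overlapped. *Gbp5*, a partner of inflammasome assembly, had 0.883 to 6.68 CPM in WT (median 1.90) and 2.58 to 6.75 CPM in non-lesional libraries (median 5.27). *Irgm1*, a regulator of autophagy, had 0.393 to 2.28 CPM in WT (median 0.453) and 0.900 to 3.24 CPM (median 2.15). The exact permutation test gave p = 0.095 for both of these low members.

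**Figure D3:**
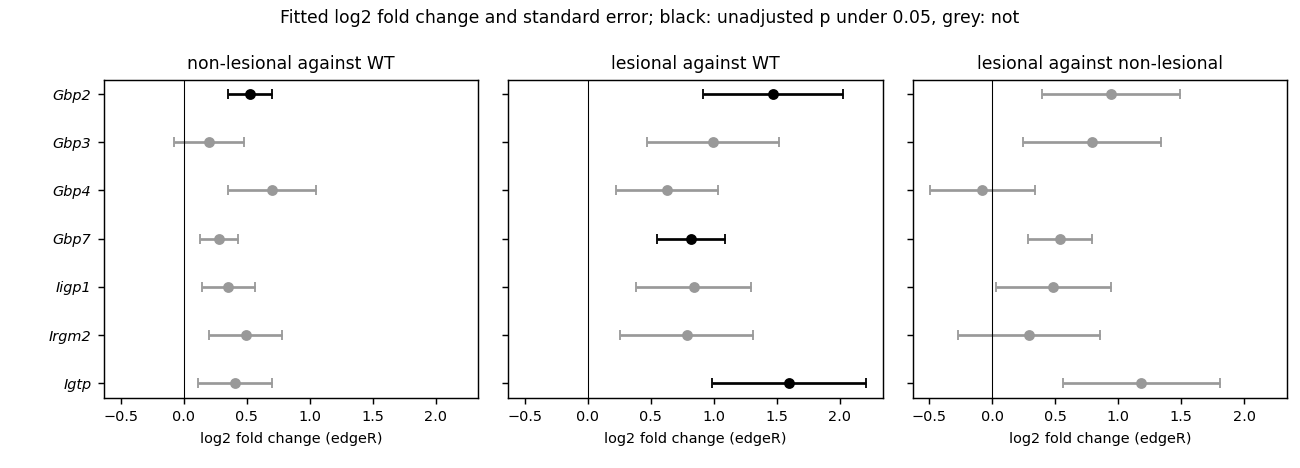
Log2 fold change fitted by edgeR (point) and its standard error (bar) of the 7 members tested in each of the 3 comparisons, in black where the unadjusted p was under 0.05. *Gbp2* is black in the comparison of non-lesional with WT libraries and *Gbp2*, *Gbp7* and *Igtp* in that of lesional with WT, and no adjusted p was under 0.05.

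Lesional skin was compared with WT next, and the 5 WT libraries are the same in both comparisons. *Igtp*, *Gbp2* and *Gbp7* were higher at an unadjusted p under 0.05, and the other 4 members tested had values above 0 that did not reach it. Most of this came from lesional replicates 2 and 11. The median log2 fold change of the 7 members was 0.84, against −0.0034 over 12918 genes, and without these 2 libraries it was 0.0038. Leaving them out was chosen after seeing the data. Of all genes, 3.24% were higher at an unadjusted p under 0.05, where the members' count was 3 of 7. No member was free of overlap, against 0.441% of genes, and 0.0% of genes passed the adjusted threshold (0 by edgeR, 621 at an unadjusted p under 0.05, 14 adjusted calls by DESeq2, none a member).

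*Igtp*, also called *Irgm3*, a regulator on the endoplasmic reticulum and lipid droplets, had 8.25, 4.86, 7.24, 11.9 and 9.49 CPM in WT libraries. In lesional replicates 2, 5, 8, 11 and 14 it had 42.6, 7.26, 6.87, 59.3 and 11.3 CPM. Replicates 2 and 11 were far above, and the other 3 lesional libraries lay within the WT range. The log2 fold change was 1.60 (SE 0.61, edgeR p = 0.023, adjusted p = 0.926, exact permutation p = 0.21), and it was 0.0038 without both libraries. The lesional values of *Gbp2* were 57.3, 16.1, 15.8, 124 and 21.6 CPM, with replicates 2 and 11 again highest and replicate 14 just above the WT maximum. Its log2 fold change was 1.47 (SE 0.56, edgeR p = 0.023, exact permutation p = 0.17) with all libraries and 0.067 without those 2.

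*Gbp7* was the steadiest of the 3. It had 24, 31.3, 32.1, 32.8 and 38.3 CPM in WT and 62.4, 36.8, 37.6, 101 and 42.7 CPM in lesional libraries. Replicates 2, 11 and 14 were above every WT library, and replicates 5 and 8 lay just under the WT maximum. The log2 fold change was 0.82 (SE 0.27, edgeR p = 0.0089, adjusted p = 0.926), with an exact permutation p of 0.024, the only one under 0.05 among the members in this comparison. Without replicates 2 and 11 it was 0.29.

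*Gbp3* had 23.4, 4.15, 8.89, 45.6 and 10.3 CPM in the lesional libraries, against 6.68 to 11.4 in WT, and its log2 fold change was 0.99 (SE 0.52). *Iigp1* had 55.9, 16.1, 19.0, 101 and 33.9 CPM, against 16.8 to 33.2 in WT, with a log2 fold change of 0.84 (SE 0.46). For both, replicate 5 was below every WT library while replicates 2 and 11 were above all others. *Gbp4* spread less, from 2.59 to 11.6 CPM, with a log2 fold change of 0.63 (SE 0.41). That value was 0.38 to 0.83 with each replicate left out and as low as 0.081 under the other alternatives. *Irgm2* had 20.2, 9.85, 11.7, 29.9 and 0.981 CPM and a log2 fold change of 0.79 (SE 0.53). Without replicates 2 and 11 the log2 fold changes were −0.24 for *Gbp3*, −0.14 for *Iigp1* and −0.14 for *Irgm2*. *Gbp5* had 1.21 to 9.12 CPM (median 2.07) and *Irgm1* 0.519 to 8.10 CPM (median 1.21) in lesional libraries. *Gbp6* had at most 4 counts in a library and was at 0 in 3 WT, 2 non-lesional and 3 lesional libraries.

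**Figure D4:**
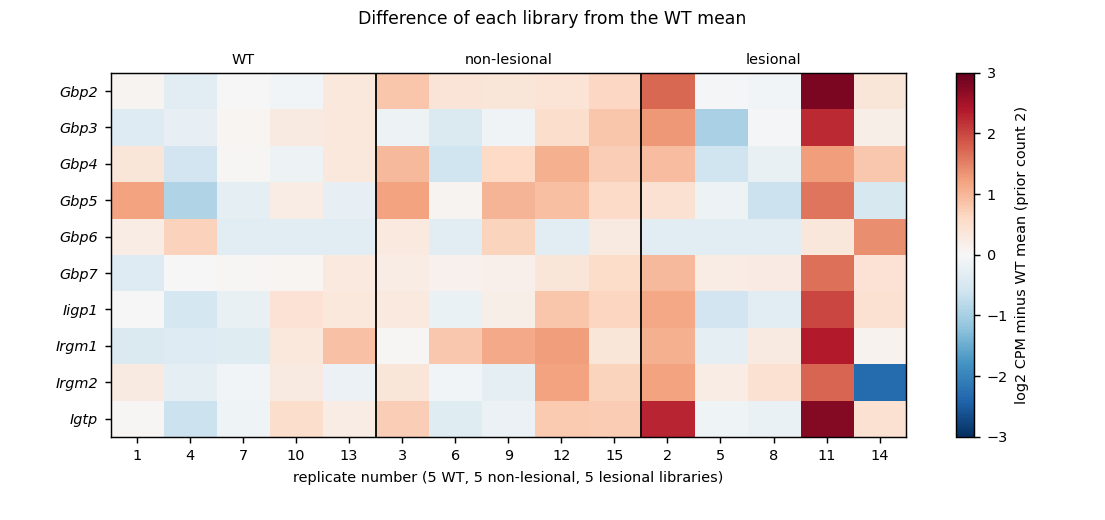
Log2 CPM (prior count 2) of each member in every library minus the mean of the 5 WT libraries, red for higher and blue for lower. Lesional replicates 2 and 11 are red in most rows, lesional replicates 5 and 8 lie near the WT mean in most rows, and *Irgm2* in lesional replicate 14 is the bluest cell.

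*Gbp2*, *Gbp3*, *Gbp7*, *Iigp1* and *Igtp* were higher in lesional replicates 2 and 11 than in any of the other 13 libraries. The summed CPM of the 10 members was 277 and 490 in these libraries, 95.4 to 133 in the other 3 lesional libraries, 105 to 173 in non-lesional and 85.2 to 128 in WT libraries. The same 2 libraries hold the high stress keratin and *S100a8*/*S100a9* counts given above. Macrophage markers summed to 663 and 704 CPM in them, more than in any other library (370 to 622 CPM) except WT replicate 13 at 791 CPM. Endothelial markers summed to 181 and 133 CPM, less than in any other library (201 to 287 CPM). T and NK cell markers summed to 33.9 and 20.3 CPM, against 18.5 to 35.8 in WT. The part of cell composition in the difference was not tested, and in whole skin a change in the number of cells that express a gene and a change in RNA per cell cannot be told apart.

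Lesional and non-lesional libraries of OTULIN-KO mice were then compared directly. No member reached an unadjusted p under 0.05 by edgeR, while 2.89% of 12864 genes were higher at that p. No member was free of overlap (0.295% of genes), and 0.0% of genes passed the adjusted threshold by edgeR or DESeq2, with 543 at an unadjusted p under 0.05 by edgeR. The median log2 fold change of the 7 members was 0.54, against 0.0031 over all genes, and it was −0.030 with hair and muscle scores as covariates. The muscle score was 8.46 in lesional replicate 11 and 10.5 or more in every other library, so this covariate also sets that library apart. By DESeq2 1 member (*Igtp*) was under 0.05, without the filter 1 (*Gbp7*) and with all 15 libraries in 1 fit 2 (*Gbp7* and *Igtp*). The log2 fold change was 1.18 (SE 0.62) for *Igtp*, 0.94 (SE 0.55) for *Gbp2*, 0.79 (SE 0.55) for *Gbp3* and 0.54 (SE 0.26, edgeR p = 0.056, exact permutation p = 0.19) for *Gbp7*. *Iigp1* had 0.48 (SE 0.46), *Irgm2* 0.29 (SE 0.56) and *Gbp4* −0.078 (SE 0.42). Without lesional replicates 2 and 11 the median of the same 7 members was −0.46. For *Gbp2*, the other 3 lesional libraries (15.8, 16.1 and 21.6 CPM) were all below the lowest non-lesional library at 21.7 CPM.

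Other genes of the 2 families were mostly too low to test, and 13 of 16 had any count. *Tgtp1*, *Tgtp2* and *Gvin1* had none. Only uniquely mapping reads were counted and the families are rich in near copies, so a count of 0 need not mean that a transcript was absent. *Ifi47*, an IRG effector also called *Irgd*, followed the pattern of *Igtp*, with 5.89, 6.18, 7.70, 8.52 and 14 CPM in WT and 27.1, 8.30, 4.04, 66.9 and 6.87 CPM in lesional libraries. Its log2 fold change was 0.38 (SE 0.25) in non-lesional and 1.40 (SE 0.69, edgeR p = 0.068, exact permutation p = 0.38) in lesional libraries, and −0.43 in the latter without lesional replicates 2 and 11. *Irgq*, an IRG-related gene that interferon is not known to drive, had 0.16 in both (SE 0.21). The other family genes were given 37 exact permutation tests over the 3 comparisons, without adjustment, of which 4 were under 0.05, all of genes too low for the filter. *Gbp9* had 1.53 ± 1.11 CPM in WT, 3.33 ± 0.92 in non-lesional (exact permutation p = 0.048) and 1.95 ± 1.18 in lesional libraries (p = 0.60, n = 5 each). *Gm4841* had 0 or 1 count in WT and 1 to 8 counts in lesional libraries (exact permutation p = 0.0079), so that this separation rests on single counts. *Gm4951* had 0.426 to 3.42 CPM in WT and 2.02 to 6.88 CPM in lesional libraries (exact permutation p = 0.048). *Gbp8*, *Gm4951*, *F830016B08Rik* and *Gm12250* had 59 to 113 counts in all, *Gm4841* and *Gm5431* 22 and 20, and *Gbp2b*, *Gbp10*, *Gbp11* and *Irgc1* at most 12. The pseudogene *Gm12250* was above all other libraries in lesional replicates 2 and 11, at 6.42 and 5.57 CPM against at most 1.7, and its exact permutation p between lesional and non-lesional libraries was 0.048.

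The pathways that drive these GTPases were described by lists chosen with earlier results of these libraries known, so their direction is not independent evidence. Of the genes of interferon-γ signalling, *Irf1*, a transcription factor that interferon-γ induces, had log2 fold changes of −0.062 (SE 0.18) in non-lesional and 0.40 (SE 0.36) in lesional libraries, *Nlrc5*, the activator of MHC class I genes, 0.29 and 0.52, and *Socs1*, the feedback inhibitor, was tested only in lesional libraries with 1.31 (SE 0.69). Without lesional replicate 11 alone, which had 25.3 CPM of *Socs1* against 0.491 to 7.34 in the other lesional libraries, its value was 0.37, that of *Irf1* −0.013 and that of *Nlrc5* 0.32. *Irf1*, *Nlrc5* and *Socs1* do not stand for the whole list of signalling genes, for which no count is given here. *Ifng* had 1 count in all 15 libraries, so the cytokine's own transcript was not measurable at this depth. Among interferon-γ target genes 2 of 13 and 5 of 13 were higher at an unadjusted p under 0.05, with medians of 0.063 and 0.73. The values of the 13 in lesional libraries ran from −0.51 to 2.48, with 11 above 0. The 3 with the smallest p follow, of which the study counts *Cxcl9* and *Cxcl10* as type I interferon response genes. *Cxcl9*, a T cell chemokine, had 2.18 (SE 0.77), *Cxcl10* 2.48 (SE 0.997) and *Cd274*, which encodes PD-L1, 1.43 (SE 0.55) in lesional libraries. Lesional replicates 2 and 11 had the highest values of all 3, with 17.9 and 79.5 CPM of *Cxcl10* against 3.43 to 5.66 in the other lesional libraries and 0.442 to 8.35 in WT. The exact permutation p was 0.10 for *Cxcl9*, 0.13 for *Cxcl10* and 0.13 for *Cd274*, and without both libraries the log2 fold changes were 0.26, 0.18 and 0.29.

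Of 20 type I interferon target genes, 11 passed the filter in the comparison of non-lesional with WT libraries, and 10 of these were higher at an unadjusted p under 0.05, with a median of 1.29. In that of lesional with WT libraries 10 passed the filter and 10 were higher, with a median of 2.21. Low genes such as *Usp18* can pass the filter through the group in which they are high, so these counts describe only the genes that passed. *Rtp4* had 1.75 (SE 0.38) and 3.36 (SE 0.88), *Usp18*, which dampens the type I receptor, 1.5 (SE 0.38) and 2.20 (SE 0.61), and *Irf9*, the ISRE-binding subunit, 0.78 (SE 0.18) and 1.21 (SE 0.33). Here too lesional replicates 2 and 11 were highest, and without both the lesional values were 1.17 for *Rtp4*, 0.87 for *Usp18* and 0.52 for *Irf9*. Of 17 genes tested for recruitment and prenylation of the GTPases, 0 differed in non-lesional libraries. In lesional libraries *Rce1* (0.49, SE 0.21), a CaaX protease, and *Atg12* (0.33, SE 0.15), of the ubiquitin-like conjugation system that guides GTPases to vacuoles, were higher at an unadjusted edgeR p under 0.05, and *Fnta* (−0.36, SE 0.17), the shared subunit of the enzymes that prenylate GBPs, was lower. The exact permutation p was 0.056 for *Rce1*, 0.032 for *Atg12* and 0.048 for *Fnta*, and without lesional replicates 2 and 11 the values were 0.25, 0.32 and −0.21. Of 5 inflammasome partners tested 0 reached an unadjusted p under 0.05 in either comparison with WT, and 1, *Casp4*, did between lesional and non-lesional libraries (1.25, SE 0.55, edgeR p = 0.039, exact permutation p = 0.22), where lesional replicates 2 and 11 had 17.4 and 21.8 CPM and the other lesional libraries 3.11 to 5.25 CPM. Against WT, *Casp4* had −0.36 (SE 0.33) and 0.90 (SE 0.50), *Casp1* 0.21 (SE 0.36) and 0.87 (SE 0.59), and *Il18* 0.016 (SE 0.15) and 0.25 (SE 0.23). Without lesional replicates 2 and 11 the lesional values were −0.41 for *Casp4*, −0.40 for *Casp1* and −0.16 for *Il18*. None of these genes passed the adjusted threshold by edgeR, and by DESeq2 *Rtp4* did in lesional libraries against WT (adjusted p = 0.0498).

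**Figure D5:**
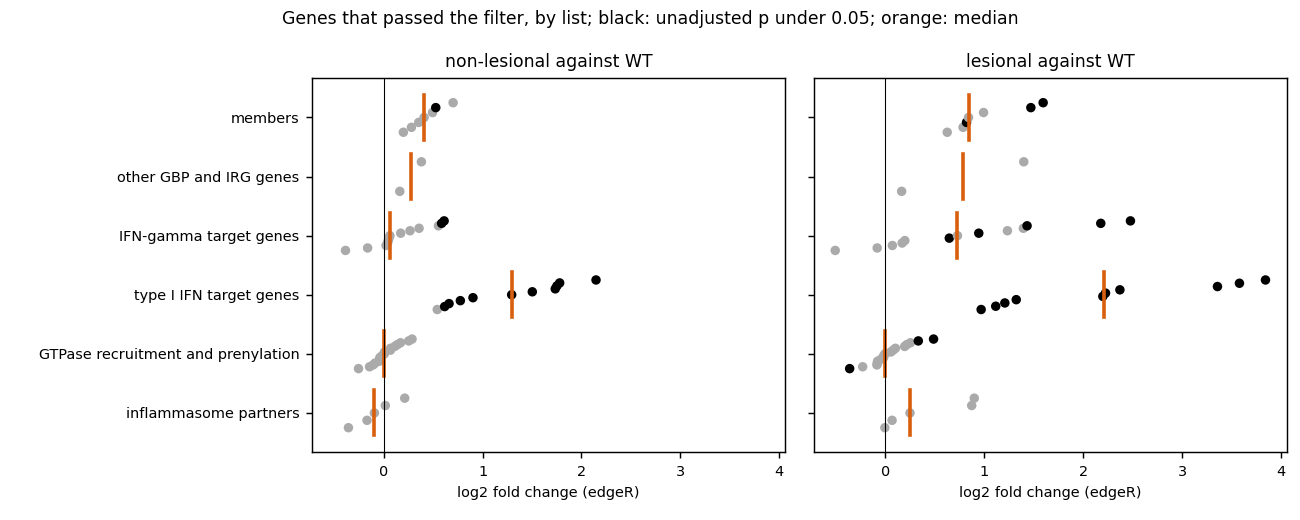
Fitted log2 fold change of every gene tested in 6 lists, in the comparisons of non-lesional and of lesional with WT libraries, black where the unadjusted p was under 0.05, with the median as an orange bar. The members' median is 0.41 on the left and 0.84 on the right, and that of type I interferon targets 1.29 and 2.21.

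Across the 15 libraries the members' log2 CPM moved together. The median Pearson correlation of the 28 pairs among the 8 members that passed the filter over all libraries was 0.69, from 0.28 to 0.94, and over the 13 libraries without lesional replicates 2 and 11 it was 0.51, from −0.16 to 0.89. These values describe libraries that share groups and depth and carry no p. Among the genes outside the members, of 13461 genes in all, those most like the mean of the 10 members were *H2-D1* (r = 0.98), *Tap1* (0.96), *Oasl2* (0.96), *Myd88* (0.95) and *B2m* (0.94). Over 13 libraries r was 0.95, 0.85, 0.87, 0.79 and 0.78. *H2-D1* and *B2m* encode chains of MHC class I, *Tap1* the transporter that loads it, *Oasl2* an interferon-induced protein and *Myd88* an adaptor of Toll-like receptors. *H2-D1*, the closest, had 81.7 to 107 CPM in WT, 96.2 to 146 in non-lesional and 88.7 to 282 in lesional libraries, where replicates 2 and 11 had 226 and 282 CPM.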

How the data were processed

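Reads of 15 QuantSeq 3′ FWD libraries were processed by the authors with cutadapt 2.10, subread-align to GRCm38 with ERCC sequences, SAMtools 1.7-2 and featureCounts 2.0.1, per the study's methods and the submitters' processing notes. The authors deposited raw counts per gene and CPM, which are each count over its library total. Per the methods, only uniquely mapping reads of high mapping quality were kept before counting. A read was counted for every gene it overlaps, and the strand setting is not given in the sources used here. The 92 ERCC rows held 0 counts and were left out. The methods' wording on the RNA integrity cut-off is contradictory, so RNA quality per library is unknown here. PCR copies were not removed, so floors and binomial intervals cover counting error only. The study's captions give 5 mice of 3 weeks of age for these profiles, and whether the lesional and non-lesional samples share mice is not stated.

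Counts were tested for each pair of groups with edgeR 4.0.16 in R 4.3.3 (TMM, filterByExpr with a minimum count of 10, robust quasi-likelihood F-test, Benjamini-Hochberg adjusted p under 0.05), on all genes that passed the filter. Per-library CPM used TMM over all 15 libraries, and log2 CPM a prior count of 2. Standard errors are the size of the log2 fold change divided by √F. Single members were tested with two-sided exact permutations over 252 regroupings of mean log2 CPM. Alternatives were DESeq2 1.42.0, limma 3.58.1 with voomWithQualityWeights, other size factors and filters, all 15 libraries in 1 fit, covariates and libraries left out. The fitting code was also run on simulated counts with known changes, and no result given here rests on that run. The members and gene lists were chosen with earlier results of these data known. Genes named are the members, the other family genes, *Otulin*, the 3 genes of each pathway list with the smallest p in lesional libraries against WT, *Ifng* and *Irf1*, and the 5 genes most correlated with the members' mean. One gene that this rule names is not reported here. Marker genes and genes that share exons with a member are named for those checks.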

Additional observations from a re-analysis of the deposited data

Results flagged for a closer look

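*Gbp6* in lesional replicate 14 stood apart from the other 4 lesional libraries, with 1.96 CPM (4 counts) against 0 to 0.507 CPM. It was the 1 value that stood apart among 33 groups of 5 libraries checked by Dixon's test, where chance flags about 1 in 20. A count of 0 in a library allows 1.14 to 1.56 CPM, so the difference is of a few counts.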

How the results depend on the processing

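No paired analysis was run, because the labels do not say which libraries, if any, share a mouse. Replicate numbers run from 1 to 15 across the groups, with none shared, and pairing by their order was not tested. The number of members that pass the filter changes with the setting. In non-lesional libraries against WT, members with an unadjusted p under 0.05 numbered 3 without the filter and with hair and muscle covariates, 0 with all 15 libraries in 1 fit, and 1 to 3 with each replicate left out. In lesional libraries against WT they numbered 1 with voomWithQualityWeights, 1 to 6 with each replicate left out (1 without lesional replicate 11, 6 without 5, 5 without 8) and 0 without both lesional replicates 2 and 11, an alternative added after seeing the data. In lesional against non-lesional libraries they numbered 1 by DESeq2, 1 without the filter, 2 in 1 fit of all libraries, 0 to 3 with each replicate left out, and 1 (*Gbp5*, lower) without both. Genes called over the table were 1 by DESeq2 and 18 without the filter for non-lesional against WT, with 0 to 5 when each replicate was left out (5 without non-lesional replicate 6), and 14 by DESeq2 for lesional against WT. The members' median without both lesional libraries was 0.0038 against WT. Against non-lesional it was −0.47 over the 8 members that then passed the filter, *Gbp5* included, and −0.46 over the 7 of the full comparison, and with hair and muscle covariates it was −0.030.

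Single members changed sign as follows. *Gbp3* ranged from −0.023 to 0.33 in non-lesional against WT with each replicate left out. Without both lesional libraries, lesional against WT gave −0.24 for *Gbp3*, −0.14 for *Iigp1* and −0.14 for *Irgm2*, and lesional against non-lesional gave −0.46 for *Gbp2*, −0.43 for *Gbp3*, −0.49 for *Iigp1*, −0.63 for *Irgm2* and −0.40 for *Igtp*. In that comparison covariates gave −0.030 for *Gbp3*, −0.23 for *Iigp1* and −0.23 for *Irgm2*, voomWithQualityWeights −0.22 for *Iigp1* and −0.060 for *Irgm2*, and leaving out each replicate −0.32 to 0.12 for *Gbp4*, −0.043 to 0.69 for *Iigp1* and −0.14 to 0.59 for *Irgm2*. The cause was not tested. No member passed the adjusted threshold under any alternative run. Counts under 20 limit what can be said of *Gbp5*, *Gbp6* and *Irgm1*.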

Other observations

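The neighbouring regulators *Irgm2* and *Igtp* did not keep the same ratio in every library. *Irgm2* took 43.2% to 63.0% of their summed counts in all WT and non-lesional libraries and in lesional replicates 5 and 8. It took 32.1% (44 of 137 counts, exact binomial 95% interval 24.4 to 40.6) in lesional replicate 2 and 33.5% (59 of 176, 26.6 to 41.0) in lesional replicate 11. In lesional replicate 14 it took 8.0% (2 of 25, 0.984 to 26), where *Igtp* had 11.3 CPM, inside the WT range. The intervals cover counting error only, and PCR copies were not removed, so they are too narrow as a measure of molecules. These ratios were noticed after the values were seen, and no cause was tested.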
